A study of Mus musculus with 3 samples.

Results

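The genes described here are 10 members of the TNF and NF-κB feedback circuit: Tnf, Nfkbia, Nfkbiz, Nfkbie, Tnfaip3, Nfkb1, Nfkb2, Rel, Relb and Birc3. They were chosen by symbol, as 10 of the 32285 genes in the count matrices, with earlier results of these data known. Their counts were summed per library in gated leukocytes of 4T1 tumors. TNF, the secreted cytokine, binds its receptors and activates the kinase IKK, which marks the IκB inhibitors for destruction. The Rel family dimers are then free to enter the nucleus, where they switch on the genes of their own inhibitors (IκBα, IκBε and the atypical IκBζ), of the ubiquitin-editing enzyme A20, of the ubiquitin ligase cIAP2 and of several of their own subunits, as well as Tnf itself. In tumor leukocytes this loop sets how long an inflammatory response lasts, and the p38 kinase is best known in it for its control of Tnf mRNA stability and translation through MK2.

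The study asked how blockade of p38 alters the immune microenvironment of a metastatic breast cancer model. Female BALB/c mice aged 6 to 8 weeks received 200000 4T1-luc cells, a luciferase-marked mammary carcinoma line, in the mammary fat pad, and live CD45+ cells were sorted from primary tumors on day 14. The vehicle group carried p38-wild-type tumors and was given DPBS from day 4 for 10 days; the p38i group carried the same tumors and was given the p38 inhibitor LY2228820 (ralimetinib) by gavage at 30 mg/kg daily over the same days. The p38KO group carried tumors of H9, 1 CRISPR-Cas9 clone that lacks p38α (Mapk14), and its label gives no treatment. Thus p38α was deleted in the tumor cells and not in the sequenced host leukocytes. The clone, the deletion and the absence of a labelled vehicle treatment cannot be told apart. Each group was 1 library made from the pooled tumors of 3 mice, so no difference between groups has a replicate check. All intervals below are 95% intervals of counting error only.

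Between 3820 and 4793 cells per library passed the filters of at least 1500 UMIs, at least 300 genes and at most 20% mitochondrial counts, with a median of 3038 to 3317 UMIs. In vehicle, p38i and p38KO, 6 exclusive gates on raw counts held 1770, 2079 and 1583 neutrophils (Csf3r and Cxcr2), 424, 693 and 357 monocytes (Ly6c2 and Fn1), 170, 188 and 560 macrophages (C1qa), 557, 670 and 534 T cells (Cd3e), 120, 118 and 136 NK cells (Ncr1), and 39, 74 and 75 dendritic cells (Flt3). For each class, 6 of 6 markers that the gates did not use were highest in their own gate. The dendritic gate was mixed, since 38.5%, 43.2% and 34.7% of its cells had a count of Siglech, a plasmacytoid dendritic cell gene looked up after the values were seen. Between 5 and 9 cell barcodes were shared by any 2 libraries. Levels are CPM, the summed counts of a class scaled to a total of 1000000, and a lower level cannot be told apart from fewer expressing cells within a class. A gene was called higher or lower when its log2 ratio to vehicle was at least 0.5 either way, its interval left out 0 and the 2 libraries together held at least 20 counts.

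The upstream sequence of 4 members is shown because Tnf, Nfkbie and Rel are 3 of the 4 members called higher in p38KO neutrophils (the matches of the other, Tnfaip3, are given after them) and Nfkbia encodes the inhibitor by which the loop is usually read. They are the 250 bases before the transcription start in RefSeq (GRCm38.p6), written 5′ to 3′ on the strand of the gene, and capitals mark each match to the κB consensus motif, searched by that name on both strands, where matches on the 2 strands may overlap.
Tnf, chr17:35202008-35202257, minus strand: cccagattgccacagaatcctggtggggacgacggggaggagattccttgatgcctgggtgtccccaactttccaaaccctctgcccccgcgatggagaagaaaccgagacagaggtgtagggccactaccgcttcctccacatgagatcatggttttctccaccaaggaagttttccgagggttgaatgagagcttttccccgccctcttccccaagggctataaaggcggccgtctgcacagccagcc
Nfkbia, chr12:55492648-55492897, minus strand: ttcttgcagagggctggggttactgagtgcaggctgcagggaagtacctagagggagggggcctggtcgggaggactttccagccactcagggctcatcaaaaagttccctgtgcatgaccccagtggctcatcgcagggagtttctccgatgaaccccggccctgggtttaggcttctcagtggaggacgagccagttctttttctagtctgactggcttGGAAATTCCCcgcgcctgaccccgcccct
Nfkbie, chr17:45555450-45555699, plus strand: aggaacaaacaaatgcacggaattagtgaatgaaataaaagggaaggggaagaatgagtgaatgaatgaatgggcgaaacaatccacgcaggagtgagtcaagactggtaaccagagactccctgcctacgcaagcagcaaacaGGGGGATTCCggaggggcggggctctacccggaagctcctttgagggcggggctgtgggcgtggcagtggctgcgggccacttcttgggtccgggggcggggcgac
Rel, chr11:23770970-23771219, minus strand: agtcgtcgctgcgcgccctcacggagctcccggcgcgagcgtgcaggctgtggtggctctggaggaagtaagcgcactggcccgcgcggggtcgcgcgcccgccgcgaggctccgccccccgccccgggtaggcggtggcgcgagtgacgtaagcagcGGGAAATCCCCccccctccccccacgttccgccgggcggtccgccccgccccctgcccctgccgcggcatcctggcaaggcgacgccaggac
The match of Nfkbia lay 29 to 20 bases before the start, that of Rel 92 to 82 bases before it and that of Nfkbie 106 to 97 bases before it. The printed Tnf window held no match, which says only that these letters are not in these 250 bases. RefSeq windows were at hand for 7 of the 10 members, and 5 of the 7 genes, the other two with a match being Nfkb2 and Tnfaip3, had at least 1 match in a window. In Tnfaip3 the letters were GGGACACCCC, 125 to 116 bases before the start, and GGAAATCCCC, 12 to 3 bases before it. Counted by window, 7 of the 10 windows of these members held a match, beside 7.25% of all 32851 windows of this length. The members were chosen as genes of the NF-κB loop, so this share does not test the set. Several of the windows with a match belong to Nfkb2, some of them overlapping. No share by gene was computed over all genes. Nfkbiz, Nfkb1 and Relb had no entry.

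Each member had its own distribution over the classes. Tnf was listed in order of the median of the 3 libraries as highest in T cells, then in neutrophils, macrophages, monocytes, dendritic cells and NK cells, and 4 of the 5 neighbouring pairs in that order overlapped over the libraries. Nfkbia, which encodes IκBα, was highest in neutrophils at 1180.3, 939.5 and 1583.9 CPM in vehicle, p38i and p38KO, and next in monocytes at 637.5, 682.5 and 568.2 CPM. Its order went on with T, dendritic, NK and macrophage cells, and only dendritic and NK cells overlapped. The ranges of Nfkbia in neutrophils and monocytes did not overlap, and the median in neutrophils was 8.91 times that in macrophages.

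Nfkbiz, which encodes IκBζ, was highest in neutrophils too, at 160.8, 153.5 and 186.8 CPM, a median 3.73 times that of T cells, the next class. Birc3, which encodes cIAP2, was likewise highest in neutrophils, at 169.8, 131.4 and 205.5 CPM, a median 2.62 times that of monocytes. The library ranges of neutrophils and the next class did not overlap for either gene. Tnfaip3, which encodes A20, had almost the same median in T cells and neutrophils (ratio 1.01), and these classes overlapped. The remaining 5 members, Nfkbie and the subunit genes, had flatter profiles, with the top class between 1.99 and 3.14 times the bottom one. Nfkb1, Rel, Relb and Nfkbie were highest in dendritic cells and Nfkb2 in T cells, each overlapping the next class.

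**Figure D1:**
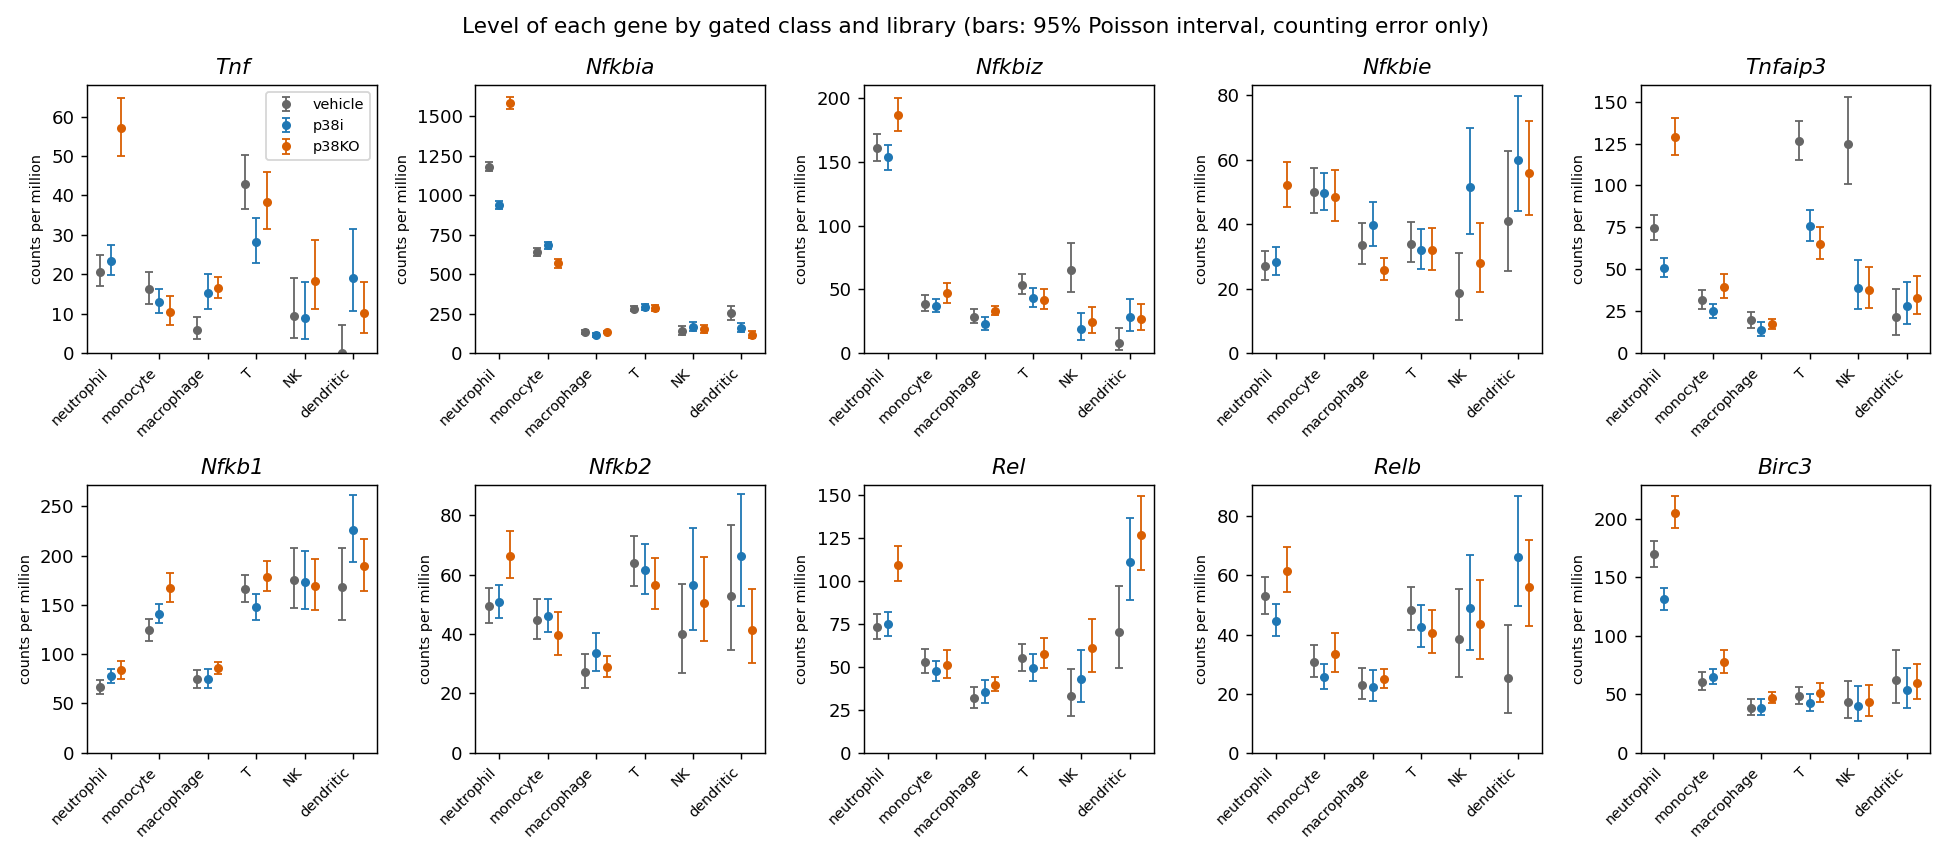
CPM (vertical axis, linear, from 0) of each of the 10 genes in the 6 gated classes (horizontal axis) for vehicle (grey), p38i (blue) and p38KO (orange), with 95% Poisson intervals of counting error. Nfkbia, Nfkbiz and Birc3 stand highest in neutrophils in all 3 libraries, and vehicle Tnfaip3 stands above both other libraries in T and NK cells.

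Of 60 pairs of a member and a class, 58 had enough counts for a call in p38i against vehicle, where 6 were called lower and 5 higher. In p38KO against vehicle 59 pairs had enough counts, and 5 were called lower and 9 higher. Both comparisons use the same vehicle library, so they are given side by side and are not independent. In neutrophils 1 of 10 members was called lower in p38i and 0 higher, where 3.17% and 8.55% of all tested genes were called lower and higher. In p38KO neutrophils 4 of 10 were called higher and 0 lower, beside 10.9% and 2.5% of all tested genes, and the median log2 ratio of the members was 0.43 beside 0.13 for all tested genes. All 10 members were above vehicle in p38KO neutrophils by estimate, and in p38i neutrophils their median was -0.02 beside 0.11 for all tested genes.

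In monocytes no member was called in p38i (backgrounds 2.84% lower and 4.32% higher) and 1 of 10 was called lower in p38KO (2.21% lower and 8.36% higher), with member medians of -0.04 and 0.04 beside 0.05 and 0.08 for all tested genes. In macrophages 1 of 10 was called higher in each comparison. The backgrounds there were 2.87% higher and 4.17% lower in p38i, and 8.79% higher and 3.17% lower in p38KO. The macrophage medians were -0.00094 and 0.17 for members beside -0.0099 and 0.06 for all tested genes. In T cells 2 of 10 were called lower in p38i and 1 of 10 in p38KO, none higher, beside 2.26% and 3.34% called lower and 7.09% and 7.73% called higher. The T cell medians were -0.17 and -0.13 for members, below the 0.09 and 0.11 of all tested genes.

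In NK cells 2 of 9 members with enough counts were called lower and 1 higher in p38i, and 2 of 10 lower and 1 higher in p38KO. The backgrounds were 5.83% lower and 3.76% higher in p38i, and 7.5% lower and 4.71% higher in p38KO, and the member medians were 0.23 and 0.14 beside -0.04 and -0.03 for all tested genes. In dendritic cells 1 of 9 was called lower and 3 higher in both comparisons. The backgrounds there were 3.94% lower and 5.3% higher in p38i, and 4.29% lower and 5.67% higher in p38KO, with member medians of 0.43 and 0.45 beside 0.04 and 0.05. With 10 members or fewer a single gene moves a share by 10 percentage points or more, so counts of 1 or 2 members are given as values of those genes and not read against the background. The 4 of 10 in p38KO neutrophils and the 3 of 9 in dendritic cells lay above theirs, the dendritic ones from 39 vehicle cells that both comparisons share. Without the richest cell of each library, Rel in p38i and Nfkbiz in p38KO were no longer called in dendritic cells. Under stricter gates Nfkbiz in both comparisons and Relb in p38KO were no longer called there. Among dendritic cells with no count of Ccr7 or Fscn1, neither Rel nor Relb was called in either comparison. The members were chosen with earlier results of these data known, so these counts do not test the set.

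**Figure D2:**
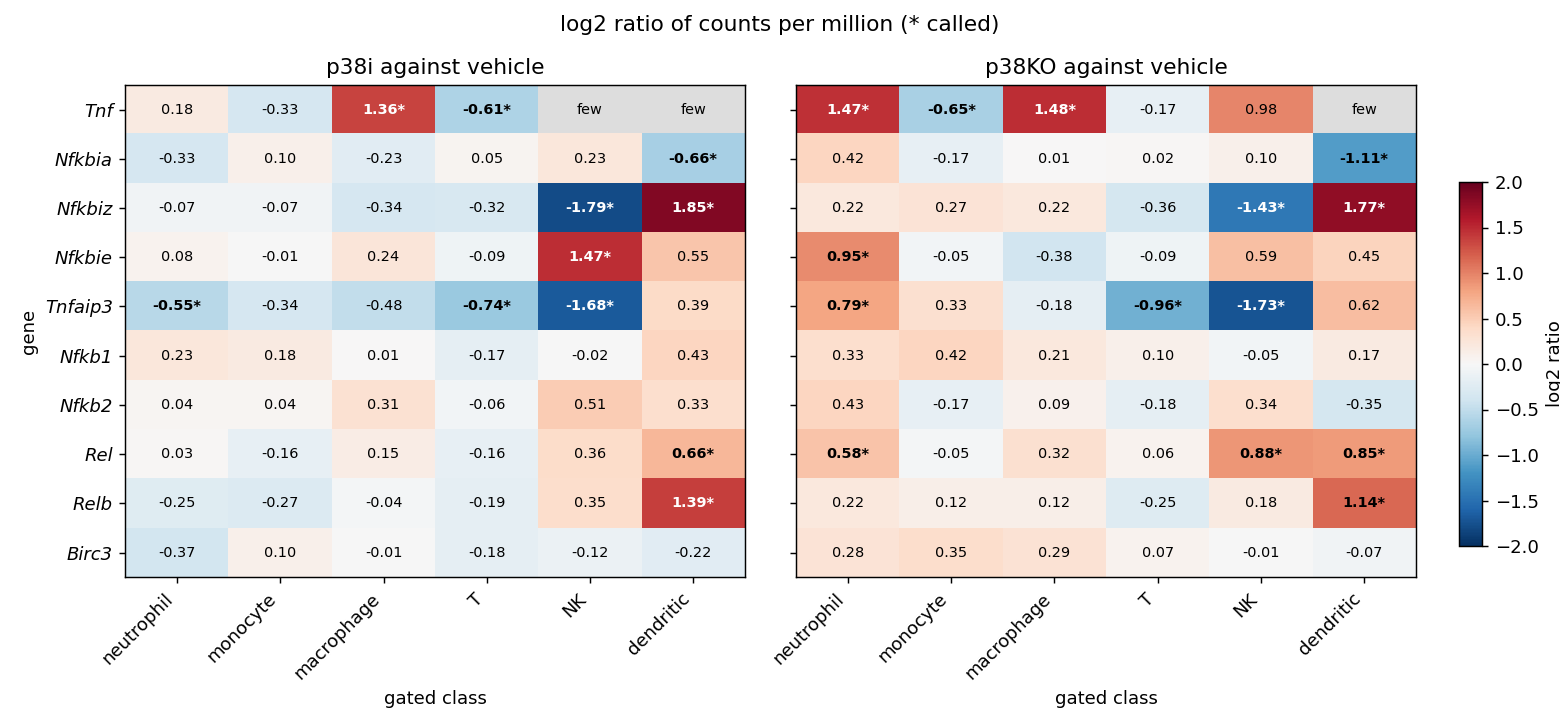
log2 ratio of CPM to vehicle (colour and printed value) for each gene (rows) and gated class (columns), p38i at left and p38KO at right, with an asterisk on called values and "few" where the 2 libraries held under 20 counts. Tnfaip3 is called lower in p38i neutrophils and higher in p38KO neutrophils, and lower in T and NK cells in both.

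Tnf, the ligand of the circuit, differed most between p38KO and vehicle in neutrophils and macrophages. In neutrophils it was 20.6 CPM (17.0 to 24.8) in vehicle, 23.4 CPM (19.8 to 27.5) in p38i and 57.1 CPM (50.1 to 64.8) in p38KO. The p38KO level stood apart from both other libraries, with a log2 ratio to vehicle of 1.47 (1.14 to 1.81), while the p38i ratio of 0.18 (-0.18 to 0.55) was not called. No single cell decided this, as the neutrophil with the most Tnf held 10, 11 and 6 counts of 112, 147 and 238. The share of neutrophils with a Tnf UMI, after thinning every cell to 1500 UMIs, was 2.26%, 3.03% and 6.7% (4.35%, 4.23% and 9.29% unthinned). NK cells, the class with the lowest median level, gave 0.833%, 1.69% and 2.94% after thinning. Median depths were 2527.5, 2275 and 2183 UMIs in neutrophils and 4419.5, 4941.5 and 5574.5 in NK cells.

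Other measures also moved in the p38KO neutrophils. Their own 6 neutrophil markers summed to 190218, 210292 and 143804 CPM in vehicle, p38i and p38KO, lowest in p38KO. The 4 epithelial markers (Epcam, Krt8, Krt18 and Krt14) summed to 9.95, 3.98 and 139.6 CPM in vehicle, p38i and p38KO, with 3, 3 and 4 of the 4 detected. The 4 mast cell markers (Cpa3, Kit, Ms4a2 and Fcer1a) summed to 6.45, 11.3 and 43.7 CPM, with 3, 4 and 4 of the 4 detected. The median mitochondrial share of these neutrophils was 0.321%, 0.391% and 0.53%. The part of these signals in the neutrophil results was not tested.

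In macrophages Tnf was 5.9 CPM (3.6 to 9.11) in vehicle, 15.1 CPM (11.2 to 19.9) in p38i and 16.4 CPM (13.9 to 19.3) in p38KO. Vehicle was the low library and the other two overlapped, with log2 ratios of 1.36 (0.58 to 2.18) and 1.48 (0.80 to 2.23), both called higher. The vehicle value rests on 20 counts in 170 cells. With each cell given equal weight the p38i ratio was 0.66, which passed by size and counts alone, with no interval. After thinning, the share of macrophages with a Tnf UMI was 1.18% (0.14 to 4.19), 2.13% (0.58 to 5.36) and 2.14% (1.11 to 3.71). These intervals overlapped. Unthinned shares were 10%, 19.7% and 15.5%. The 6 neutrophil markers summed to 2938.9, 1646.8 and 2154.5 CPM in these macrophages, all 6 detected in each library. The mast cell markers summed to 1.48, 1.21 and 47.3 CPM, with 2, 1 and 4 of the 4 detected, and the epithelial markers to 3.54, 8.17 and 6.25 CPM. The part of these markers in the Tnf values was not tested.

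In monocytes Tnf was 16.2 CPM (12.5 to 20.6), 12.9 CPM (10.2 to 16.1) and 10.3 CPM (7.07 to 14.6), the opposite order to neutrophils. The p38KO ratio of -0.65 (-1.31 to -0.02) was called lower by a narrow margin, and the p38i ratio of -0.33 (-0.82 to 0.17) was not. The p38KO ratio was -0.57 without the cell filter and -0.46 with stricter gates, not called in either. The neutrophil markers in the monocyte gate summed to 10589, 9331 and 3035.7 CPM, lowest in p38KO, and the epithelial markers to 5.65, 4.02 and 144.1 CPM; their part was not tested.

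In T cells Tnf was 43.0 CPM (36.4 to 50.4) in vehicle, 28.1 CPM (22.8 to 34.4) in p38i and 38.2 CPM (31.6 to 45.9) in p38KO, and p38i was called lower at -0.61 (-0.995 to -0.23). A single vehicle T cell, however, held 62 of the 153 Tnf counts. Without the cell richest in Tnf in each library, the levels were 25.6, 24.5 and 35.3 CPM and the p38i ratio was -0.06, so the call rested on that cell. In dendritic cells Tnf had 0 counts of 512411 in vehicle, which allows up to 5.85 CPM (3 counts), and 15 and 11 counts in p38i and p38KO. The levels were 19.1 CPM in p38i and 10.1 CPM in p38KO, but 6 of the 15 and 7 of the 11 counts lay in 1 cell each and neither pair reached 20 counts, so no call was made.

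Among the inhibitors, Nfkbia was called in dendritic cells alone of the 6 whole classes. In neutrophils the p38i ratio was -0.33 (-0.38 to -0.28) and the p38KO ratio 0.42 (0.37 to 0.47), on opposite sides of vehicle with narrow intervals, yet both under the size set for a call. In monocytes, macrophages, T and NK cells the 8 ratios lay between -0.23 and 0.23. In dendritic cells Nfkbia was 251.8 CPM in vehicle, 159.5 in p38i and 116.6 in p38KO, and was called lower at -0.66 (-1.02 to -0.29) and -1.11 (-1.48 to -0.75). In vehicle 1 dendritic cell held 61 of the 129 counts, and without the richest cell of each library the ratios were 0.010 and -0.45, neither called. Leaving out dendritic cells with many counts of other lineages (S100a8 and S100a9, Lyz2 or Cpa3; 4, 7 and 3 cells) gave 0.34 and 0.042. The neutrophil markers in the dendritic gate summed to 1241.2, 502.9 and 178.1 CPM, with 5, 6 and 4 of the 6 detected, in the same order of libraries as Nfkbia. The part of these markers in the Nfkbia values was not tested.

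Nfkbie, which encodes IκBε, was called higher in p38KO neutrophils, at 52.0 CPM (45.3 to 59.4) against 26.9 (22.7 to 31.6) in vehicle and 28.3 (24.3 to 32.8) in p38i. The p38KO ratio was 0.95 (0.64 to 1.27) and the p38i ratio 0.08 (-0.25 to 0.40). In NK cells it was 18.6 CPM (10.2 to 31.2) in vehicle, 51.6 (37.0 to 69.9) in p38i and 28.1 (18.8 to 40.3) in p38KO, from 14, 41 and 29 counts. Here p38i was the high library and was called at 1.47 (0.57 to 2.46).

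Nfkbiz, the atypical inhibitor that acts in the nucleus as a coactivator of a set of secondary NF-κB targets, was called, among the 6 whole classes, in NK and dendritic cells alone, and in opposite directions. In NK cells it was 65.1 CPM (48.2 to 86.1) in vehicle, 18.9 (10.6 to 31.1) in p38i and 24.2 (15.7 to 35.7) in p38KO, with ratios of -1.79 (-2.73 to -0.93) and -1.43 (-2.18 to -0.70). Vehicle did not overlap the other two. In dendritic cells it was 7.81 CPM (2.13 to 19.99), 28.1 (17.6 to 42.5) and 26.6 (17.8 to 38.2), from 4, 22 and 29 counts, and was called higher at 1.85 (0.29 to 3.84) and 1.77 (0.26 to 3.74). Of the 29 p38KO counts 18 lay in 1 cell, and the p38KO call was lost without it (0.76); under stricter gates the ratios were 2.33 and 0.90, neither called.

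Tnfaip3, the A20 gene that ends signalling from the TNF receptor complex, was the member called most often. In T cells it was 126.4 CPM (115.0 to 138.7) in vehicle, 75.6 (66.7 to 85.4) in p38i and 65.2 (56.4 to 74.9) in p38KO. Vehicle stood above both, at -0.74 (-0.97 to -0.52) and -0.96 (-1.21 to -0.71). In NK cells it was 124.9 CPM (100.9 to 152.9), 39.0 (26.5 to 55.3) and 37.8 (26.9 to 51.6), at -1.68 (-2.32 to -1.08) and -1.73 (-2.30 to -1.17). The richest cell held at most 7 counts in T cells and 6 in NK cells, and the share of cells with a UMI after thinning was 19.7%, 12.1% and 11.4% in T cells and 20%, 6.78% and 9.56% in NK cells (unthinned 45.2%, 26.3% and 24.9%, and 48.3%, 22.03% and 24.3%). Macrophages, the class with the lowest median level, gave 3.53%, 2.66% and 3.21% after thinning at median depths of 18002.5, 16852 and 13432 UMIs, against 5167, 3985.5 and 4744.5 in T cells.

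These calls held under each of the 7 alternatives tried, where equal weight of cells was judged by size and counts alone. T cell ratios lay between -0.88 and -0.63 in p38i and between -1.06 and -0.92 in p38KO. NK ratios lay between -1.82 and -1.64 in p38i and between -1.82 and -1.67 in p38KO. The neutrophil markers summed to 1286.8, 3130.6 and 916.5 CPM in T cells and to 922.2, 372.2 and 521.8 CPM in NK cells, with 6 of 6 detected throughout. The mast cell markers in NK cells summed to 51.8, 27.7 and 526.7 CPM, with 1, 2 and 4 of the 4 detected. Without cells holding many counts of S100a8 and S100a9, Lyz2 or Cpa3 the Tnfaip3 ratios were -0.70 and -0.98 in T cells and -1.82 and -1.74 in NK cells.

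In neutrophils Tnfaip3 lay on both sides of vehicle. It was 74.6 CPM (67.5 to 82.2) in vehicle, 50.8 (45.4 to 56.7) in p38i and 128.8 (118.1 to 140.2) in p38KO, and none of these intervals overlapped. The p38KO ratio of 0.79 (0.60 to 0.98) was called higher and ranged from 0.66 to 1.11 over the alternatives. The p38i ratio of -0.55 (-0.77 to -0.34) was called lower, but it was -0.43 without the richest cell of each library, where 1 vehicle neutrophil held 41 of the 405 counts, and -0.01 in neutrophils gated at 5 or more counts of Csf3r and Cxcr2.

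Of the 4 subunit genes, Rel was called in neutrophils, NK and dendritic cells and Relb in dendritic cells. Rel, which encodes c-Rel, was 73.5 CPM (66.5 to 81.1), 74.9 (68.2 to 81.9) and 109.6 (99.8 to 120.1) in neutrophils of vehicle, p38i and p38KO. The p38KO ratio of 0.58 (0.38 to 0.77) was called higher, though it was 0.45 and not called once the median of all genes was set to 0. In NK cells Rel was 33.2, 42.8 and 61.0 CPM, and the p38KO ratio of 0.88 (0.19 to 1.61) was called higher, with 12 of the 63 p38KO counts in 1 cell and no call without the richest cell of each library (0.74) or under stricter gates (0.68).

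In dendritic cells Rel was 70.3 CPM (49.2 to 97.3) in vehicle, 111.0 (88.9 to 137.0) in p38i and 126.7 (106.5 to 149.7) in p38KO, called higher at 0.66 (0.08 to 1.26) and 0.85 (0.31 to 1.42). Relb, the subunit of the non-canonical pathway, was 25.4 CPM (13.5 to 43.4), 66.4 (49.6 to 87.0) and 56.0 (42.8 to 71.9) there, called higher at 1.39 (0.49 to 2.39) and 1.14 (0.26 to 2.13). Vehicle was the low library for both genes, from 39 cells with 36 counts of Rel and 13 of Relb. Without the richest cell of each library Relb was still called, at 1.63 and 1.34, and Rel was called in p38KO alone (0.54 and 0.60). Under stricter gates the p38KO call of Relb was lost (0.69), and with equal weight of cells the p38i call of Rel was lost (0.38).

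Nfkb1, which encodes p105 and p50, and Nfkb2, which encodes p100 and p52, were called in no class. Nfkb1 ratios lay between -0.17 and 0.43 in p38i and between -0.05 and 0.42 in p38KO over the 6 classes. Nfkb2 ratios lay between -0.06 and 0.51 and between -0.35 and 0.43. Birc3 was called in no class either, with ratios between -0.37 and 0.10 in p38i and between -0.07 and 0.35 in p38KO. In neutrophils its 3 intervals did not overlap, at 169.8 CPM (159.0 to 181.1), 131.4 (122.6 to 140.7) and 205.5 (192.0 to 219.8), and the ratios of -0.37 (-0.51 to -0.23) and 0.28 (0.14 to 0.41) lay on opposite sides of vehicle, under the size set for a call.

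Gated neutrophils were then divided by whether a cell had a count of Cxcr2, a chemokine receptor that draws neutrophils into tissue. Cxcr2 is also part of the neutrophil gate, so that cells without it entered through Csf3r alone. Cells without one numbered 299, 306 and 218 in vehicle, p38i and p38KO, against 1471, 1773 and 1365 with one, at median depths of 2003 to 2352 and 2225 to 2566 UMIs. In vehicle the cells without Cxcr2 had more Tnf (53.4 against 14.8 CPM), Nfkbia (1989.1 against 1035.5), Nfkbie (49.7 against 22.8), Tnfaip3 (175.9 against 56.5) and Rel (99.5 against 68.8). In p38KO the same 5 genes were higher there too, at 108.5 against 50.1 CPM for Tnf, 2444.5 against 1467.2 for Nfkbia and 279.2 against 108.4 for Tnfaip3. In p38i the gap was small, with Tnf at 23.5 against 23.4 CPM, Nfkbie at 31.4 against 27.9 and Tnfaip3 at 58.8 against 49.7, intervals overlapping. Nfkbia (1283.1 against 891.8) and Rel (99.3 against 71.5) kept an interval apart from 0 in p38i. The share of all genes that differ between cells with and without Cxcr2 was not computed. The gap is therefore not read as particular to these 5 genes.

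Within the cells without Cxcr2, p38i was called lower for Tnf at -1.18 (-2.06 to -0.36), Nfkbia at -0.63 (-0.75 to -0.52) and Tnfaip3 at -1.58 (-2.10 to -1.09), which is 3 of 10 members lower and 0 higher beside 5.4% and 6.27% of all tested genes. Without the richest cell of each library they were -0.98, -0.52 and -1.22, all still called. Within the cells with Cxcr2, p38i was called in 1 of 10, Tnf, which was higher at 0.66 (0.23 to 1.11), where 9.89% of all tested genes were called higher and 2.87% lower. The p38KO library was called higher in 5 of 10 members in each subset, and lower in 0, beside 11.8% higher and 2.43% lower of all tested genes with Cxcr2 and 8.9% and 5.39% without. These were Tnf, Nfkbie, Tnfaip3 and Rel in both, Nfkbia only with Cxcr2 (0.50, 0.45 to 0.56) and Nfkb2 only without (0.96, 0.32 to 1.61). Whether the subsets differ in their response was not tested, since each rests on 1 library per group.

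**Figure D3:**
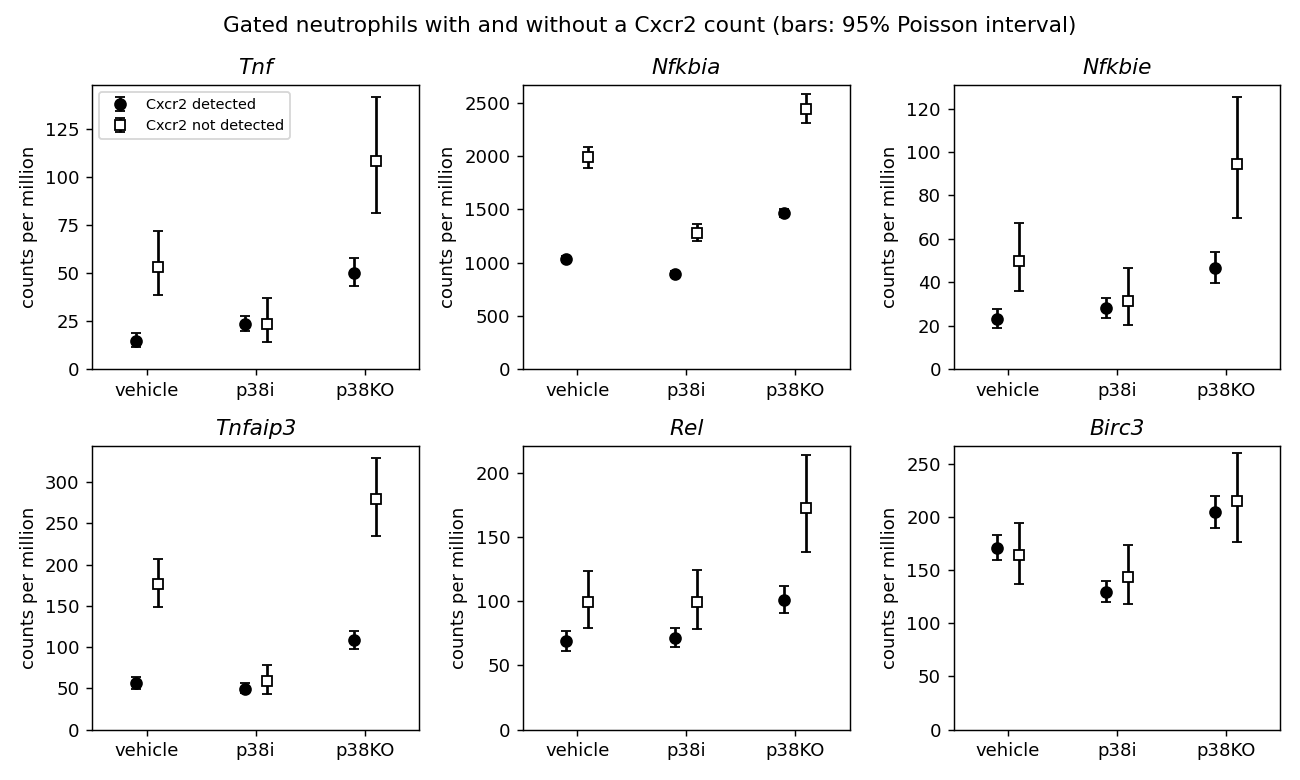
CPM (vertical axes, linear, from 0) of 6 members in gated neutrophils with (filled circles) and without (open squares) a Cxcr2 count in each library, with 95% Poisson intervals. For Tnf, Nfkbie and Tnfaip3 the open squares stand above the circles in vehicle and p38KO and overlap them in p38i.

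The other members were also looked at in neutrophils with a Tnf UMI after thinning, 40, 63 and 106 cells in vehicle, p38i and p38KO. Nfkbia was detected in 85.0%, 79.4% and 86.8% of these cells, against 50.6%, 49.2% and 52.8% of the neutrophils with no Tnf UMI. Tnfaip3 was detected in 32.5%, 25.4% and 34.9% against 7.75%, 6.99% and 12.7%, and Nfkbiz in 55.0%, 42.9% and 34.9% against 20.1%, 20.4% and 22.8%. For these 3 genes the Clopper-Pearson intervals of the cells with and without Tnf did not overlap in any of the 3 libraries. Nfkbie and Rel stood apart in 2 libraries, Nfkb1, Relb and Birc3 in 1, and Nfkb2 in none. In monocytes and macrophages, with 5 to 16 and 2 to 12 cells holding a Tnf UMI, no member stood apart in any library, and shares from so few cells have wide intervals. The share of all genes that stand apart in this way was not computed, so these values are not read as particular to the members. Cells of 1 library are not replicates, so this is a description.

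**Figure D4:**
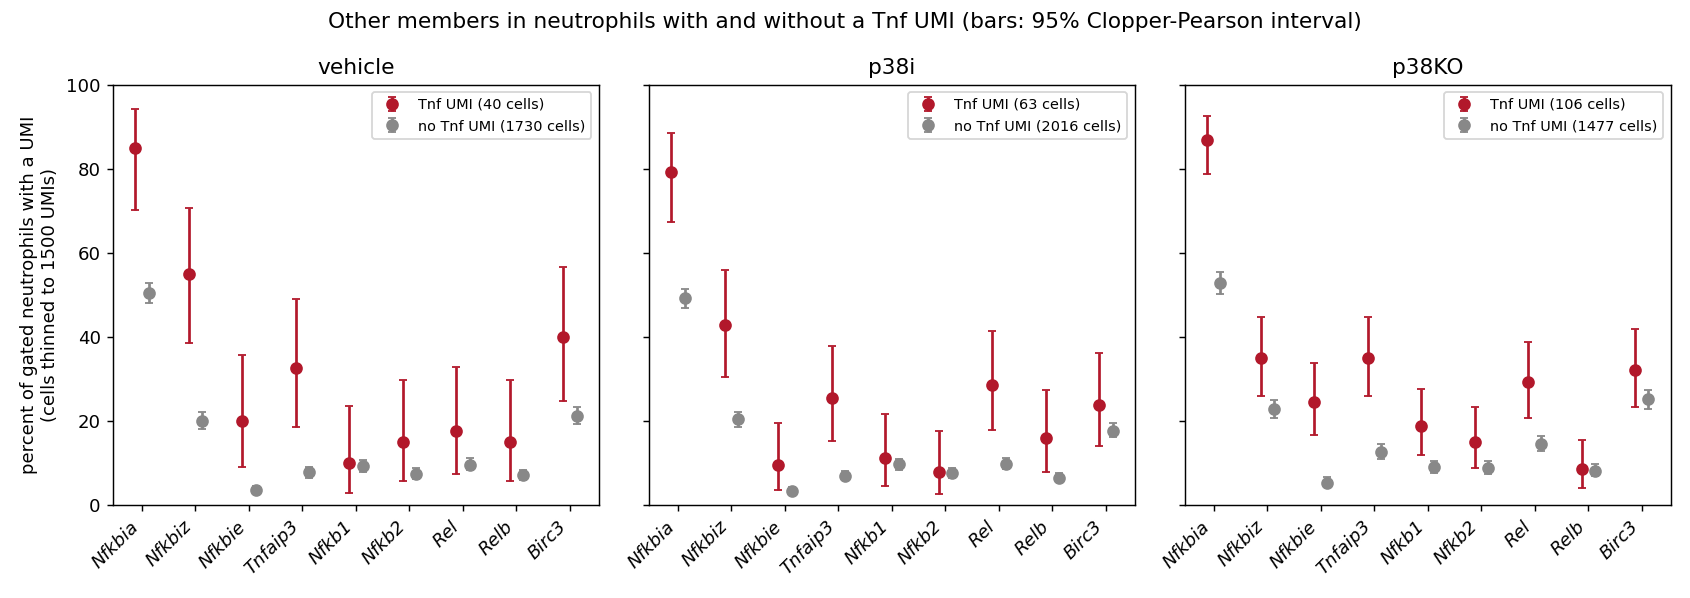
Percent of gated neutrophils with a UMI of each other member (vertical axis, each cell thinned to 1500 UMIs) among cells with (red) and without (grey) a Tnf UMI, 1 panel per library, with 95% Clopper-Pearson intervals. Nfkbia, Nfkbiz and Tnfaip3 stand higher in cells with Tnf in all 3 panels.

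T cells were divided by Cd8a or Cd8b1, Cd4 and Foxp3, which mark CD8+, CD4+ and regulatory T cells. CD8+ cells numbered 274, 243 and 149, CD4+ cells without Foxp3 110, 141 and 159, and cells with Foxp3 69, 116 and 97. Tnfaip3 was called lower in all 3 subsets in both comparisons. In CD8+ cells it was 106.3, 57.5 and 29.9 CPM in vehicle, p38i and p38KO, with ratios of -0.89 (-1.26 to -0.52) and -1.83 (-2.45 to -1.26). In CD4+ cells without Foxp3 it was 186.9, 102.4 and 86.9 CPM, and in cells with Foxp3 163.5, 101.0 and 88.7 CPM.

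CD8+ cells were below CD4+ cells without Foxp3 for Nfkbia, Nfkbiz and Tnfaip3 in each library, with intervals apart from 0. The same was seen for Tnf with all cells kept. In vehicle, however, 1 CD4+ cell held 62 of the 70 Tnf counts, as given below, so the vehicle order of Tnf rests on that cell. The share of all genes that differ between these subsets was not computed. Of 10 members in CD8+ cells, 6 were called lower in p38KO (Nfkbia, Nfkbiz, Tnfaip3, Nfkb2, Relb and Birc3) and 2 in p38i (Nfkbiz and Tnfaip3), beside 5.4% and 2.89% of all tested genes. In CD4+ cells without Foxp3, 3 were called lower in p38KO and 4 in p38i, Tnf among them in both, beside 3.5% in each comparison. In cells with Foxp3, 4 were called lower in p38KO and 2 in p38i (Tnfaip3 and Birc3), beside 3.25% and 3.29%. Birc3 was not called in p38i without the richest cell of each library (-0.82). With all cells kept, no member was called higher in any of these subsets. Of all tested genes, 6.82% in p38KO and 4.62% in p38i were called higher in CD8+ cells, 7.04% and 5.87% in CD4+ cells without Foxp3, and 5.27% and 4.74% in cells with Foxp3. Whether the subsets differ in their response was not tested. Nfkbia in CD8+ cells was 163.3, 130.4 and 83.2 CPM, while in CD4+ cells without Foxp3 it was 348.4, 337.5 and 472.6 CPM. In cells with Foxp3 it was 638.0, 648.2 and 337.6 CPM, called lower in p38KO at -0.92 (-1.20 to -0.64). The vehicle cell with 62 Tnf counts was a CD4+ cell without Foxp3, and these cells had 70 in all. Their Tnf ratios of -1.70 in p38i and -0.92 in p38KO, both called lower, became 1.07, not called, and 2.05, called higher, without the richest cell of each library.

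Dendritic cells with a count of Ccr7 or Fscn1, genes of the mature migratory state, numbered 4, 12 and 10, at median depths of 7279, 8374 and 10144.5 UMIs against 13439, 8723 and 12635 in the other dendritic cells. Relb was 434.8 CPM (313.4 to 587.7) in the 12 p38i cells against 14.6 (7.0 to 26.8) in the other 62, and 336.9 (237.2 to 464.4) in the 10 p38KO cells against 24.5 (15.7 to 36.5) in the other 65. Rel and Nfkb2 followed, at 372.7 against 74.2 and 331.3 against 29.1 CPM in p38i, and 601.0 against 73.5 and 154.8 against 28.6 CPM in p38KO. In vehicle the 4 such cells held 2 counts of Relb, 4 of Rel and 3 of Nfkb2, too few to place. Among dendritic cells with neither gene, Rel was 66.1, 74.2 and 73.5 CPM and Relb 22.7, 14.6 and 24.5 CPM in vehicle, p38i and p38KO, and neither was called in either comparison. In these cells Nfkbia was called lower in both (1 of 9 members in p38i and 1 of 8 in p38KO) and Nfkbiz higher in p38i, where 3.55% and 4.55% of all tested genes were called lower and 4.99% and 5.27% higher. Without the richest cell of each library Nfkbia was called in p38KO (-0.73) but not in p38i (-0.41), and Nfkbiz was not called in p38i (2.47). The 12 p38i cells held 42 of the 52 Relb counts and 36 of the 87 Rel counts of their gate, and the 10 p38KO cells 37 of 61 and 66 of 138. Such cells were 4 of 39 in vehicle, 12 of 74 in p38i and 10 of 75 in p38KO.

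The rest of the pathway was read from lists of other genes. These lists were also chosen with earlier results of these data known, so their counts do not test the lists. Of 28 inflammatory NF-κB targets (cytokines, chemokines and response genes), those tested in p38i were called lower in 8 of 26 in neutrophils, 10 of 27 in monocytes and 10 of 26 in macrophages, with 0 higher in each, beside 3.17%, 2.84% and 4.17% of all tested genes called lower. Their median log2 ratios there were -0.31, -0.16 and -0.42 beside 0.11, 0.05 and -0.0099 for all tested genes. The shares of all tested genes called higher in these 3 classes were 8.55%, 4.32% and 2.87%. In p38KO neutrophils 12 of 27 were called higher, among them Il1a, Il6, Icam1, Sod2, Nlrp3 and Cd83, and 1 was called lower. The median was 0.33 beside 0.13, and 10.9% of all tested genes were called higher and 2.5% lower. Monocytes of p38KO had 5 of 27 lower and 0 higher, and macrophages 5 of 27 lower and 1 higher. The medians there were -0.26 and -0.22 beside 0.08 and 0.06. In these classes 2.21% and 3.17% of all tested genes were called lower and 8.36% and 8.79% higher.

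By the fixed rule, monocytes had 4 targets named as lower in both groups. They were Il6, Cxcl2 (the neutrophil-attracting chemokine), Ptgs2 (the COX-2 gene) and Ccrl2, with p38i ratios of -1.09, -1.15, -1.36 and -1.07. All 4 were still called without the richest cell of each library. In macrophages Cxcl1, Ptgs2 and Cxcl10 were lower in both, with p38i ratios of -1.63, -1.49 and -1.33, and Cxcl1 was not called without the richest cells, 1 of which held 10 of its 19 vehicle counts. NK cells had 6 of 18 lower and 1 higher in p38i and 7 of 19 lower and 1 higher in p38KO. The NK medians were -0.29 and -0.17 beside -0.04 and -0.03. In NK cells 5.83% and 7.5% of all tested genes were called lower and 3.76% and 4.71% higher. Cxcl2, Ptgs2, Ccrl2 and Ccl3 were named there, of which Cxcl2 was 695.0, 25.2 and 42.6 CPM in vehicle, p38i and p38KO. A single vehicle NK cell held 219 of its 523 counts, and without the richest cells Cxcl2 was still called (-4.21 and -4.25), as were Ccrl2 and Ccl3, while Ptgs2 was not. Cxcl2 is best known from myeloid cells, and vehicle NK cells had the most neutrophil marker counts, as given above. Their part was not tested.

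T cells had 11 of 25 targets higher and 2 lower in p38i, with Il1b, Ptgs2 and Plaur among the higher ones. The T cell gate of that library held 3130.6 CPM of neutrophil markers against 1286.8 in vehicle. The part of these markers in the target values was not tested. In p38KO T cells 4 of 24 were higher and 3 lower, and the T cell medians were 0.47 and 0.12 beside 0.09 and 0.11. In T cells 7.09% and 7.73% of all tested genes were called higher and 2.26% and 3.34% lower. Dendritic cells had 6 of 20 higher and 6 lower in p38i, and 4 higher and 9 lower in p38KO, with medians of -0.11 and 0.13 beside 0.04 and 0.05. The dendritic backgrounds were 5.3% higher and 3.94% lower in p38i, and 5.67% and 4.29% in p38KO. Ccl4, Cxcl10, Ccl3 and Cxcl2 were lower in both, but 1 vehicle cell held 45 of the 47 Cxcl10 counts and 1 held 80 of the 92 Cxcl2 counts. Without the richest cells neither was called, while Ccl4 (-3.48 and -4.30) and Ccl3 (-3.75 and -2.65) were. The dendritic gate held 1241.2, 502.9 and 178.1 CPM of neutrophil markers in vehicle, p38i and p38KO. The 6 monocyte markers summed there to 3165.4, 2122.5 and 1838.3 CPM, with 6, 4 and 4 detected. The part of these markers in the dendritic target values was not tested. Il1b and Plaur were also called lower in both comparisons, and Cd40, Bcl2a1b, Bcl2a1a and Marcksl1 were called higher in both. Values without the richest cells are not given for these genes, so their calls may rest on single cells.

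**Figure D5:**
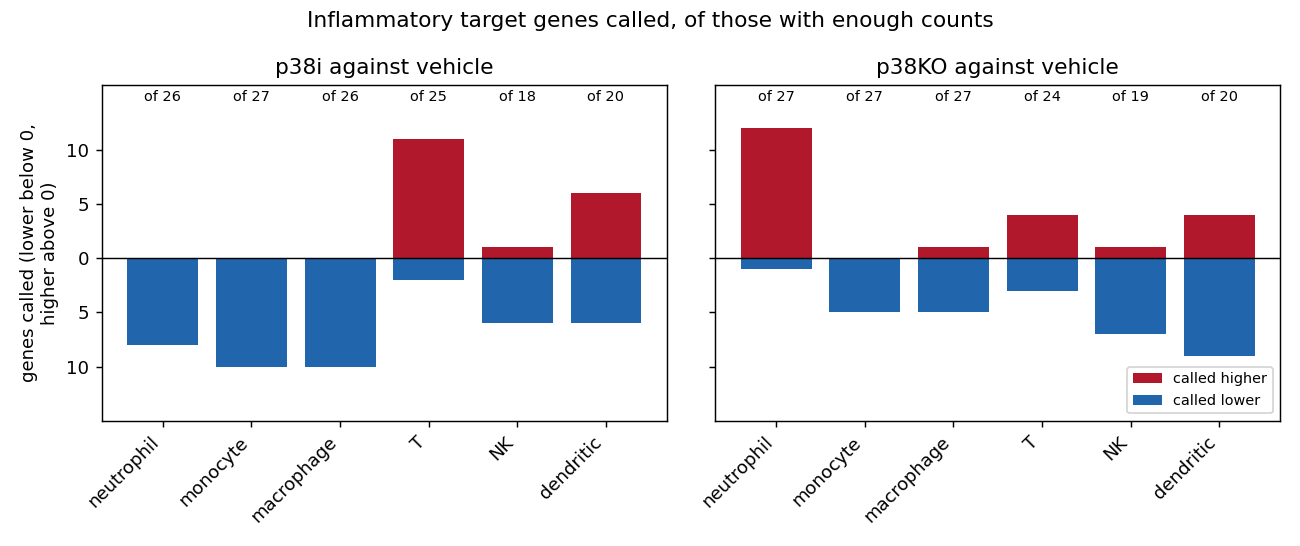
Number of inflammatory target genes called higher (red, above 0) and lower (blue, below 0) than vehicle in each gated class, with the number tested printed above. Neutrophils have 8 lower in p38i and 12 higher in p38KO, and macrophages and monocytes have 10 lower in p38i. The list was chosen with earlier results of these data known.

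The upstream parts of the pathway had fewer calls, and their list medians over the classes and comparisons lay between -0.32 and 0.36, where those of all tested genes lay between -0.04 and 0.13. Of 12 TNF receptors and adaptors, 3 of 11 tested were higher in p38KO neutrophils, beside 10.9% of all tested genes, and none was called in p38i neutrophils. In dendritic cells 2 of 9 were higher in p38i and 4 of 10 in p38KO, beside 5.3% and 5.67%. Traf2 and Birc2, partners of the TNF receptor complex, were higher there in both groups, Traf2 from 3 vehicle counts. Of 19 IKK and upstream kinase genes, at most 3 were called in any class and comparison. In p38KO neutrophils 3 of 19 were higher, beside 10.9% of all tested genes. In p38i NK cells 2 of 16 were lower and 1 higher, beside 5.83% and 3.76%. In p38KO dendritic cells 2 of 14 were lower and 1 higher, beside 4.29% and 5.67%. Map3k14, which encodes the non-canonical kinase NIK, was higher in macrophages of both groups (p38i ratio 1.28), Irak1 was higher in dendritic cells of both, and Map3k8 and Malt1 were lower in NK cells of both (p38i ratios -1.32 and -0.75). Of 8 other NF-κB and IκB family genes at most 1 was called anywhere. Over the classes and comparisons 2.21% to 7.5% of all tested genes were called lower and 2.87% to 10.9% higher.

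Of 18 ubiquitin editors and RNA-level brakes, at most 5 were called in a class. These were in p38KO neutrophils, 4 higher and 1 lower, beside 10.9% and 2.5% of all tested genes. Zfp36, which encodes tristetraprolin, a protein that destabilises Tnf mRNA and is itself a p38 pathway substrate, was lower in p38i in neutrophils, monocytes, macrophages and dendritic cells, and in p38KO in dendritic cells (p38i ratio there -1.45). Tnip3 was lower in macrophages of both groups (p38i ratio -1.08, and -0.63 without the richest cells), Zfp36l1 and N4bp1 were lower in NK cells of both (-1.04 and -0.79), and Tnfaip8l2 was higher in T cells of both (0.51).

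The genes whose level over the 18 values of 6 classes and 3 libraries was most like a member's were named for Tnf, Nfkbia and Birc3, among 2943 genes. For Tnf they were Rhoh, Cks2, Nr3c1, Nfat5 and Phf20l1, with Pearson's r of 0.75 to 0.81. For Nfkbia they were Parp14, Oas3, Slfn2, Srgn and Ube2d3 (0.94 to 0.96), and for Birc3 Ppp1r2, Gpcpd1, Trim30b, Hbp1 and Mboat7 (0.97 to 0.98). Among the members themselves Nfkbia and Birc3 were most alike (0.87), followed by Nfkbiz and Birc3 (0.81), and Nfkbiz and Nfkb1 were least alike (-0.50). The 18 points share libraries and cell classes, so these correlations on log2(CPM + 10) are descriptions.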

How the data were processed

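Droplet-based 3′ RNA counts of live CD45+ tumor cells were analysed in 3 libraries (vehicle, p38i and p38KO), 1 per group. The authors deposited unnormalized UMI counts per gene and barcode (Cell Ranger 6.0.0 per the file headers, mm10 per the submitters' processing notes, which also name R 4.2.1 and Seurat 5). Per-sample columns left unused numbered 0. Replicate libraries were absent, so no test was run.

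The members, lists and gates were chosen with earlier results of these data known. Kept cells (1500 or more UMIs, 300 or more genes, mitochondrial share of 20% or less) were gated on raw counts by exclusive thresholds on Csf3r plus Cxcr2, Ly6c2 plus Fn1, C1qa, Cd3e, Ncr1 and Flt3. Cells that met no gate, with too few marker counts or with markers of several lineages, stayed ungated (740, 971 and 614 cells). The macrophage gate set no limit on neutrophil or monocyte counts. No doublet caller was run. Gates remain approximate, as free RNA and doublets add counts of other cells.

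Counts were summed per class and library and divided by the class total (CPM), with exact Poisson intervals. Log2 ratios to vehicle had exact conditional binomial intervals and shares had Clopper-Pearson intervals, with cells thinned to 1500 UMIs (0 kept cells were shallower). The ratio, interval and call steps were tried on simulated counts from the same counting model that the intervals assume. Spread between cells or mice was not simulated, so that trial cannot speak to it. Named genes were the 10 members, pathway genes called the same way in both comparisons (at most 4 per list and class) and the 5 genes most correlated with Tnf, Nfkbia and Birc3, among genes of at least 100 CPM somewhere. All other lists' genes are given as counts, apart from a few named in the text after their values were seen. The result of 1 marker list is not reported here. Promoters came from RefSeq. Alternatives were another scaling, no count minimum, stricter gates, no cell filter, equal weight of cells, unthinned shares and 2 chosen after seeing the data: leaving out the cell of each library richest in the gene, and leaving out T, NK and dendritic cells with at least 10 counts of S100a8 plus S100a9, 10 of Lyz2 or 3 of Cpa3. Calls with equal weight of cells used size and counts alone, with no interval. Python 3.11.15, numpy 2.4.6, scipy 1.17.1, pandas 2.3.3 and matplotlib 3.10.9 were used.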

Additional observations from a re-analysis of the deposited data

Results flagged for a closer look

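In all, 3 members were called in opposite directions in different classes against the same vehicle library. Each class is 1 library per group, and the difference between classes was not tested. Tnf in p38i was lower in T cells (-0.61) and higher in macrophages (1.36), where the T cell value rests on 1 vehicle cell. Tnf in p38KO was lower in monocytes (-0.65) and higher in neutrophils (1.47) and macrophages (1.48). The monocyte call was narrow (-1.31 to -0.02) and was lost under stricter gates (-0.46) and without the cell filter (-0.57). Nfkbiz was lower in NK cells and higher in dendritic cells, at -1.79 and 1.85 in p38i and at -1.43 and 1.77 in p38KO, the dendritic values resting on 4 vehicle counts. Tnfaip3 in p38KO was lower in T cells (-0.96) and NK cells (-1.73) and higher in neutrophils (0.79).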

How the results depend on the processing

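No paired analysis was possible because each group is 1 library. Counts of members called per class kept within 1.5 times of the main count in 12 of 12 results with the median of all genes set to 0 and in 12 of 12 with no count minimum. Stricter gates changed 3 of them: neutrophils in p38i to 0, and macrophages to 2 in p38i and to 2 in p38KO. No cell filter took monocytes in p38KO to 0. Equal weight of cells, judged by size and counts alone, gave 2 in p38KO monocytes, 2 in p38i macrophages and 5 in p38KO NK cells. Leaving out the richest cell, or other-lineage cells, was chosen after seeing the data. Without the richest cell there were 0 in p38i neutrophils, 1 in p38i T cells, and 2 in dendritic cells in each comparison. Without cells holding counts of other lineages, 6 of 6 counts stayed within that limit. Nfkbia in p38i dendritic cells changed sign under stricter gates (0.34), without the richest cell (0.010) and without other-lineage cells (0.34), and in p38KO dendritic cells without other-lineage cells (0.042); 1 vehicle cell held 61 of its 129 counts. Of 11 calls in p38i, 8 held under stricter gates and 7 without the richest cell; of 14 in p38KO, 10 and 11 held. No member called in a whole class was called there in the opposite direction under any alternative run for that class. Within subsets, Tnf in p38KO CD4+ T cells without Foxp3 went from called lower (-0.92) to called higher (2.05) without the richest cell of each library. NK and dendritic cells rest on 39 to 136 cells per library. The cause of the other changes was not tested.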
